A study of Mus musculus with 6 samples.

Results

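The insulin receptor signalling genes of the mouse aorta were compared between diets on 6 Affymetrix arrays, 3 of the high fat group and 3 of the chow group. The set was a list of 10 genes: Insr, Irs1, Irs2, Pik3r1, Akt1, Akt2, Foxo1, Foxo3, Gsk3b and Tbc1d4. A probe set, the group of short probes that reports 1 transcript on such an array, was taken for a gene where that gene was the single symbol annotated to it. By this rule 9 of the 10 genes, among 12393 genes with a symbol of their own, had 19 of the 22626 probe sets, and Tbc1d4 had none. The strain was C57BL/6J in both groups, inbred and without an engineered allele, and each array carried RNA pooled from 3 aortas freed of adventitia and of the surrounding fat. The high fat diet lasted 16 to 18 weeks, and for replicates 2 and 3 the labels put its start at an age of 10 weeks. High fat replicate 1 was labelled with an age of 16 to 20 weeks, and no starting age was given for it. Chow replicates 2 and 3 were 26 to 28 weeks old, and chow replicate 1 carried no age. The mice were male on every label except that of high fat replicate 1, which gave no sex. The pools were described as independent, so that n = 3 pools per diet, and the spread behind each test is that of pools, not of single animals.

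Insulin binds a receptor tyrosine kinase, encoded by Insr, which phosphorylates the adaptor proteins IRS1 and IRS2. These recruit PI3 kinase, whose regulatory subunit p85 is encoded by Pik3r1, and the lipid it makes activates the AKT kinases. AKT in turn phosphorylates GSK3B, which restrains glycogen synthesis, the FOXO transcription factors, which leave the nucleus, and TBC1D4, which holds glucose transporters inside the cell. In the vessel wall this route is known for activating the endothelial nitric oxide synthase and for survival signals in smooth muscle. Much of it is controlled by phosphorylation, which arrays of RNA do not measure.

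None of the genes passed the threshold between the diets after adjustment. Signals were compared as log2(signal + 6) with limma, and p-values were adjusted over all 13575 probe sets above a filter on low signals. Of the 19 probe sets, 16 passed this filter, at least 1 for each of the 9 genes, and 0 of the 16 reached an adjusted p of 0.05, where 0.0737% of all probe sets tested did. The smallest adjusted p was 0.633, for Akt1. At an unadjusted p of 0.05 there were 2, or 12.5%, against 7.03% of all probe sets. Both were lower on high fat diet, where the background was 3.11%, and 0 were higher, where it was 3.92%. These were 1 probe set of Akt1 and 1 of Foxo3, and they were also the 2 whose arrays did not overlap between the diets, against 12.3% of all probe sets without overlap and 6.08% with the high fat arrays below. None had all high fat arrays above all chow arrays, where the background was 6.26%. Both had an unadjusted p above 0.05 when certain arrays were left out, in fits that also had fewer arrays. For Akt1 these were chow replicate 1 (0.101) and high fat replicates 1 (0.0561) and 2 (0.0680). For Foxo3 they were chow replicates 1 (0.0703) and 3 (0.163) and high fat replicates 2 (0.111) and 3 (0.0838). With any single array left out, the log2 fold change stayed between -0.47 and -0.29 for Akt1 and between -0.39 and -0.26 for Foxo3. Without high fat replicate 2, Pik3r1 1425514_at had an unadjusted p of 0.0367 in place of both. Without high fat replicate 3, Akt2 1424480_s_at had one of 0.0496, beside Akt1 at 0.0289.

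Over the 16 probe sets, 10 (62.5%) had lower and 6 had higher means on high fat diet, where 51.8% of all probe sets tested had lower means. The log2 fold changes, high fat minus chow, ran from -0.39 to 0.54. Their median was -0.08, beside -0.01 for all probe sets tested. Its sign was not stable: it ran from -0.17 to -0.0013 when single arrays were left out, and was 0.012 with array weights and 0.022 with the adipocyte marker covariate. The 95% interval of the difference lay within 1 log2 unit of 0 for 15 of the 16 probe sets, the exception being Irs2, and within 0.5 log2 units for 3. In RNA of a whole tissue, fewer cells of a type and less RNA per cell cannot be told apart.

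**Figure D1:**
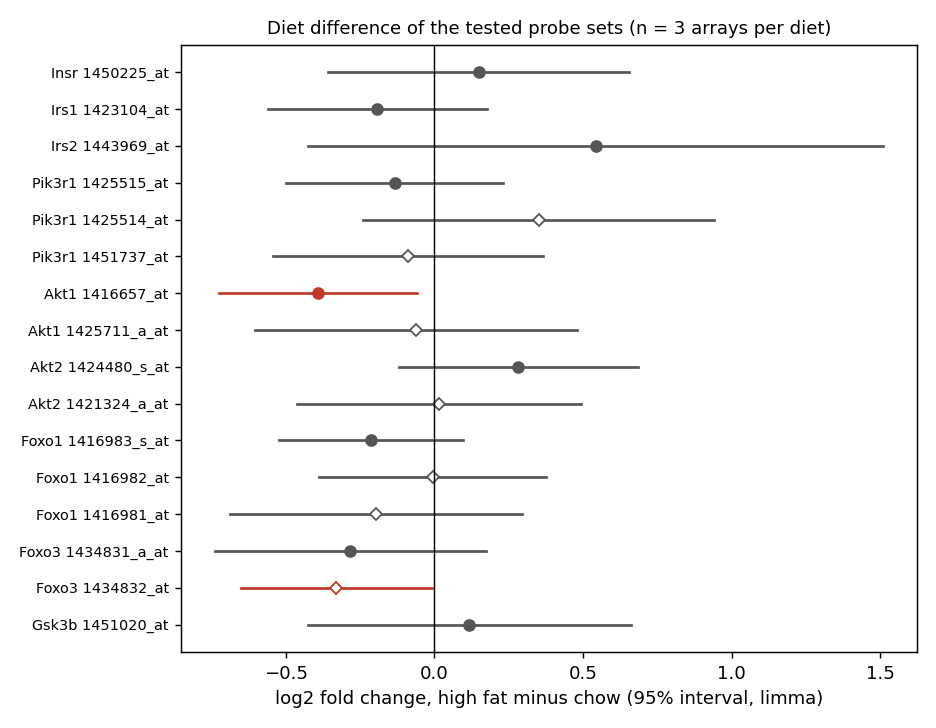
Log2 fold change between the diets (x axis, high fat minus chow) with its 95% interval for the 16 tested probe sets, 3 arrays per diet; filled circles are the probe set of highest mean signal of each gene, open diamonds the others, and red marks an unadjusted p under 0.05. The intervals of Akt1 1416657_at and Foxo3 1434832_at lie below 0, the other 14 include it, and that of Irs2 reaches 1.51.

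The arrays carried the pattern of an aortic wall with other tissues beside it. Smooth muscle markers were high on all arrays, with Acta2 between 7181 and 9545. Of these 10 markers, 2 had a higher mean on high fat diet. Fat and heart transcripts were present too: the summed signal of 8 brown adipocyte markers was 10485 to 12689 on high fat diet and 6753 to 8953 on chow, and that of 8 white adipocyte markers 9069 to 9702 and 7715 to 10323. The sum of 13 cardiac muscle markers differed most among arrays, and 13 of 13 had a higher mean on high fat diet. By replicate number the sum was 1139, 8696 and 6620 on high fat diet and 3014, 4431 and 1061 on chow. The mean was higher on high fat diet for 9 of 10 macrophage markers, with sums of 2756 to 4632 against 2127 to 2766, and for 9 of 10 endothelial markers, with 1800 to 2192 against 1629 to 1736. It was also higher for 4 of 4 nerve and Schwann cell markers, with sums of 334 to 500 against 241 to 319, and for 1 of 9 skeletal muscle markers, with 282 to 538 against 305 to 943. Adventitial fibroblast markers summed to 14206 to 14712 on high fat diet and 14122 to 16247 on chow, and 3 of 8 had a higher mean on high fat diet. The largest were Col1a2 and Dcn, at means of 4434 and 3484 on high fat diet. The aortas were described as freed of adventitia, and which cells gave these signals was not tested. No marker had a signal of 0. Median signals lay between 58.4 and 66.6, and with 3 arrays per diet their number sets the precision.

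Promoters of some of the genes compared below are shown from RefSeq, build GRCm38.p6. They span 250 bases before to 50 after the annotated start, read 5′ to 3′ on the strand of the gene. Akt1 and Foxo3 are shown because their diets did not overlap for 1 probe set each, and Irs1 and Irs2 because these paralogues were set against each other. Akt2 and Foxo1 were also set against their paralogues, but their promoters are not printed and hold neither of the motifs named below. RefSeq entries were found for 9 of the 10 genes, with 14 promoters in all. Capitals mark matches on either strand to TGTTTAC, a sequence that FOXO factors bind, or to TGTTTTG, the insulin response sequence of insulin-repressed genes such as Igfbp1. The letters of these motifs overlapped in none of the promoters printed.
Irs1, chr1:82291390-82291689, minus strand: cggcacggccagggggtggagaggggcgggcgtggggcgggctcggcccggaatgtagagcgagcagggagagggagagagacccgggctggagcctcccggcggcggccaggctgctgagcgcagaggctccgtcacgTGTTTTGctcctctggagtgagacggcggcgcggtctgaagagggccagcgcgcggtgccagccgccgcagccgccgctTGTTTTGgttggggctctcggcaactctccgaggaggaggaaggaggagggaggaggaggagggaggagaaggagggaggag
Irs2, chr8:11008880-11009179, minus strand: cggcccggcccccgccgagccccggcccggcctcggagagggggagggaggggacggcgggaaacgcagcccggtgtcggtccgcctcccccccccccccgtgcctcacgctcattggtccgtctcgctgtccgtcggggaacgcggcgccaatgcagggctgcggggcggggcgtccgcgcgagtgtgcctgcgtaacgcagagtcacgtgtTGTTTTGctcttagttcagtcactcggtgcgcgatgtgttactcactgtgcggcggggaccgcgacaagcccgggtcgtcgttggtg
Akt1, chr12:112674835-112675134, minus strand: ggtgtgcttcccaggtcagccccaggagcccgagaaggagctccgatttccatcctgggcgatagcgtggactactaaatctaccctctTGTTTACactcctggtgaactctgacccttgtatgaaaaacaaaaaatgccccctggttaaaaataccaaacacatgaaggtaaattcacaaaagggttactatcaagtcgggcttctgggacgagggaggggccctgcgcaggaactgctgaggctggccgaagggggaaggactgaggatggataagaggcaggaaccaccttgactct
Foxo3, chr10:42276646-42276945, minus strand: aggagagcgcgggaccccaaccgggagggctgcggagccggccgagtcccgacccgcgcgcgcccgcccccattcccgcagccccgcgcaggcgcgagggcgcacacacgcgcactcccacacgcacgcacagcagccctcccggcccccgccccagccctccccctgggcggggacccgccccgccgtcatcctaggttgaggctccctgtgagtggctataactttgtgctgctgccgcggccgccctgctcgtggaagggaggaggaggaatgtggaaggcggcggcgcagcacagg
The insulin response sequence was found in 2 of the 14 promoters, those of Irs1 and Irs2, and in 6.28% of 32851 mouse promoters of the same length. It began 37 bases before the start in Irs2, and 111 and 32 bases before it in Irs1. The FOXO sequence was found in 1 of the 14, the Akt1 promoter shown, 161 bases before the start, and in 3.65% of all promoters. The other annotated Akt1 promoter, which lies downstream, held neither of them, nor did the Foxo3 promoter, whose GC content was 75.0% against a median of 52.7% over all promoters. A match is a description of letters, and nothing about a factor is read from it.

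Insr, the receptor itself, gave a low signal. Its leading probe set, the one of highest mean, (1450225_at) read 70.8, 76.3 and 56.2 on high fat diet and 50.3, 53.9 and 79.5 on chow, in the order of the replicate numbers, which holds for all signals below. The highest and the 2 lowest values belonged to chow, so that the diets overlapped throughout. The log2 fold change was 0.15 ± 0.23 (SE, adjusted p = 0.914, limma), with an interval from -0.36 to 0.66. A second Insr probe set, at 9.8 to 26.0 over the 6 arrays, lay below the filter and was not tested.

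Irs1, the adaptor that is best known from muscle and fat, had a lower mean on high fat diet without a separation of the arrays. It read 347.8, 279.8 and 367.6 on high fat diet and 320.3, 422.7 and 396.7 on chow. The lowest array was high fat replicate 2, and chow replicate 1 lay below the other high fat arrays. The log2 fold change was -0.19 ± 0.17 (SE, adjusted p = 0.851, limma), with an interval from -0.56 to 0.18.

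Irs2, the adaptor that FOXO factors are known to induce in fasted liver, read 51.8, 50.3 and 59.0 on high fat diet and 11.3, 60.1 and 53.9 on chow. Chow replicate 1 stood alone far below, and the other 5 arrays lay between 50.3 and 60.1 with the diets mixed. The log2 fold change was 0.54 ± 0.44 (SE, adjusted p = 0.841, limma) and rested on that array, being -0.08 without it. It was the value with the widest interval of the set, from -0.42 to 1.51.

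**Figure D2:**
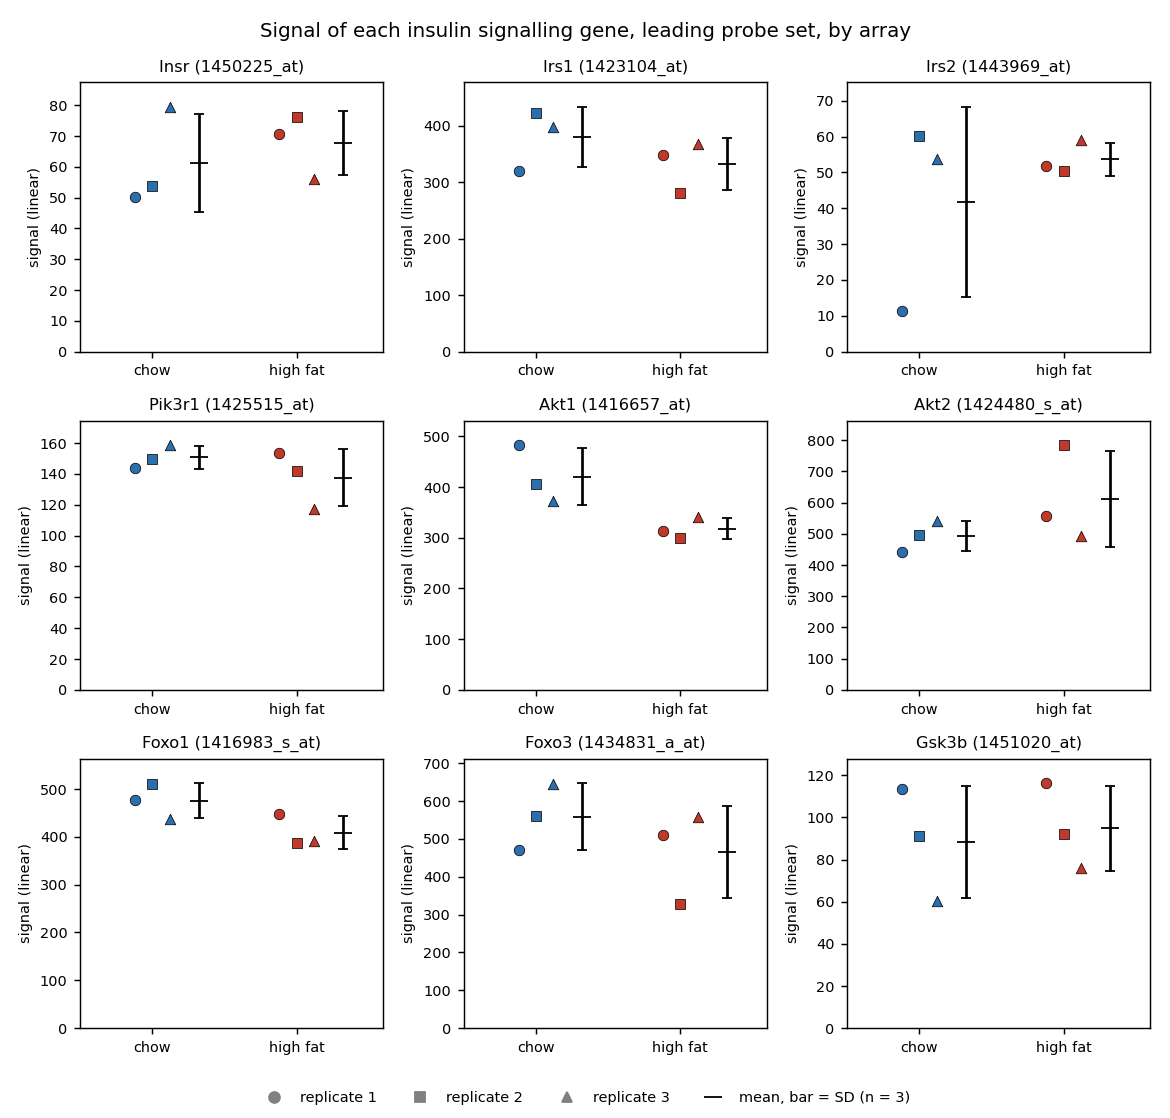
Linear signal (y axis, from 0) of the leading probe set of each of the 9 genes on the 3 chow arrays (blue) and the 3 high fat arrays (red), with symbols for the replicate number and the mean ± SD beside them. The diets are apart for Akt1 alone, at 299 to 340 against 372 to 483, and 1 chow array of Irs2 lies at 11.3.

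Pik3r1, the p85 regulatory subunit that ties PI3 kinase to the IRS proteins, was measured by 3 probe sets that did not move together. The leading one read 153.5, 141.8 and 117.3 on high fat diet and 143.8, 149.6 and 158.7 on chow, a log2 difference of -0.13 ± 0.16 (SE, adjusted p = 0.889, limma). Another (1425514_at) had a log2 fold change of 0.35, with 155.0 in high fat replicate 1 and 68.2 to 98.7 on the other 5 arrays. It was 0.07 when high fat replicate 1 was left out, 0.61 (unadjusted p = 0.0367) when high fat replicate 2 was, and 0.61 (unadjusted p = 0.0124) with the cardiac marker mean as a covariate. The remaining one (1451737_at) had -0.09. Across the 6 arrays the log2 values of these probe sets correlated with each other at -0.15 to 0.11, a description over arrays that share both diets. Pik3r1 has long and short transcripts, and which of them each probe set binds is not given in the sources used here.

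Akt1, the AKT kinase of growth and survival in most tissues, was the gene with the smallest p. Its leading probe set (1416657_at) read 314.3, 299.4 and 340.3 on high fat diet and 482.9, 407.1 and 371.7 on chow. All high fat arrays lay below all chow arrays, and the chow arrays were the more spread. The means were 318.0 ± 20.7 on high fat diet and 420.6 ± 56.8 on chow (SD, n = 3 each), a ratio of 0.756. The log2 fold change was -0.39 ± 0.15 (SE, unadjusted p = 0.0256, adjusted p = 0.633, limma), with an interval from -0.72 to -0.06. It lay between -0.47 and -0.29 when single arrays were left out. With the mean of the adipocyte markers as a covariate, which was 0.18 to 0.31 on the high fat arrays and -0.42 to 0.07 on the chow arrays as a log2 deviation, it was -0.16, and with the cardiac marker mean it was -0.42. The other Akt1 probe set (1425711_a_at) read 85.8 to 143.7 over all arrays and had a log2 fold change of -0.06, with equal signals of 85.8 in replicate 2 of both diets.

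Akt2, the AKT kinase that insulin-stimulated glucose uptake depends on, had 2 probe sets that also differed. The leading one read 557.3, 784.2 and 491.7 on high fat diet and 442.5, 496.7 and 540.6 on chow. High fat replicate 2, the array with the highest cardiac marker sum (8696), was far above the rest, and the other 5 arrays overlapped. High fat replicate 3, with the next highest sum (6620), read lowest of the high fat arrays. Chow replicate 3, with the lowest sum (1061), read highest of the chow arrays. The log2 fold change was 0.28 ± 0.18 (SE, adjusted p = 0.797, limma), 0.25 with the cardiac marker mean as a covariate and 0.09 when high fat replicate 2 was left out. When high fat replicate 3 was left out instead it was 0.42, with an unadjusted p of 0.0496. With the adipocyte marker mean it was -0.04. Its suffix, _s_at, which the leading Foxo1 probe set shares, marks probes that can bind more than 1 transcript. The other probe set (1421324_a_at), at 87.3 to 145.6, had a log2 fold change of 0.01.

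Foxo3, a FOXO factor that AKT inactivates, had lower means on high fat diet in both tested probe sets. The one without overlap (1434832_at) read 323.4, 282.4 and 296.9 on high fat diet and 373.5, 346.9 and 420.3 on chow. All high fat arrays lay below all chow arrays, with high fat replicate 1 and chow replicate 2 the closest. The means were 300.9 ± 20.8 and 380.2 ± 37.2 (SD, n = 3 each), a ratio of 0.791. The log2 fold change was -0.33 ± 0.15 (SE, unadjusted p = 0.0450, adjusted p = 0.692, limma), with an interval from -0.65 to -0.01. Without single arrays it ran from -0.39 to -0.26, and it was -0.51 with the adipocyte marker mean (unadjusted p = 0.0867) and -0.26 with the cardiac one (0.123). The unadjusted p was also above 0.05 with quantile normalization (0.0541), array weights (0.0570), no variance trend (0.0614) and the replicate number as a block (0.0520), and in 4 of the 6 fits without a single array. The leading Foxo3 probe set, at 511.0, 328.8 and 558.9 on high fat diet against 470.4, 560.6 and 646.0 on chow, overlapped and had a log2 difference of -0.28 ± 0.21 (SE, adjusted p = 0.814, limma). Leaving out high fat replicate 2 gave -0.05, and leaving out high fat replicate 3 gave -0.43. The log2 values of both correlated at 0.66 over the 6 arrays. A further one, at 2.9 to 4.9, lay below the filter and was not tested.

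Foxo1, the FOXO factor best known for glucose production in liver and for adipocyte and endothelial growth control, had 3 tested probe sets with log2 fold changes of -0.21, -0.01 and -0.20. The leading one read 448.6, 386.9 and 391.1 on high fat diet and 477.6, 510.6 and 437.3 on chow. High fat replicate 1 lay above chow replicate 3, and the other high fat arrays lay below the chow range. Its log2 fold change was -0.21 ± 0.14 (SE, adjusted p = 0.798, limma), with an interval from -0.52 to 0.10. The others correlated with each other at 0.94 and read highest in replicate 1 of either diet, at 303.8 and 334.7 for one and at 348.2 and 347.2 for the other. One more, at 3.9 to 26.6, lay below the filter.

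Gsk3b, the kinase that AKT switches off to release glycogen synthase, read 116.2, 92.2 and 75.9 on high fat diet and 113.4, 91.2 and 60.4 on chow. The spread within a diet was larger than the difference between diets, and the log2 fold change was 0.12 ± 0.25 (SE, adjusted p = 0.942, limma). Its interval ran from -0.43 to 0.66. In both diets the signal fell from replicate 1 to replicate 3, and with the replicate number as a block the SE was 0.19.

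The paralogues were set against each other within each array, since a plain ratio on 1 array does not depend on the scaling of that array. The constant added to each signal before the log2 leaves some dependence on scaling, most for low signals such as that of Irs2. Only the change of such a difference between diets can be read, as 2 probe sets bind with different strength. Irs2 minus Irs1, in log2 units, was -2.61, -2.34 and -2.52 on high fat diet and -4.24, -2.70 and -2.75 on chow. All high fat arrays lay above all chow arrays, and the means differed by 0.73 (exact permutation test, two-sided, p = 0.1, the smallest that 3 arrays against 3 allow). Without chow replicate 1 the difference was 0.23. Its size also depended on the added constant, being 0.85 with a constant of 1 and 0.55 with one of 20. With equal array medians it was 0.74, and in these 3 settings p stayed at 0.1 (exact permutation test). With quantile normalization it was 0.71 and p was 0.2 (exact permutation test), so that the smallest p was not reached there. Akt2 minus Akt1 was 0.81, 1.37 and 0.52 on high fat diet and -0.12, 0.28 and 0.53 on chow, a difference of 0.67 (exact permutation test, two-sided, p = 0.2). High fat replicate 3 lay just below chow replicate 3, which was the one overlap. With the mean of all probe sets of each gene the difference was 0.37 (exact permutation test, p = 0.1). Foxo1 minus Foxo3 was -0.19, 0.23 and -0.51 on high fat diet and 0.02, -0.13 and -0.56 on chow, a difference of 0.07 (exact permutation test, p = 0.9). A design of 3 against 3 cannot reach a p of 0.05 in this test.

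**Figure D3:**
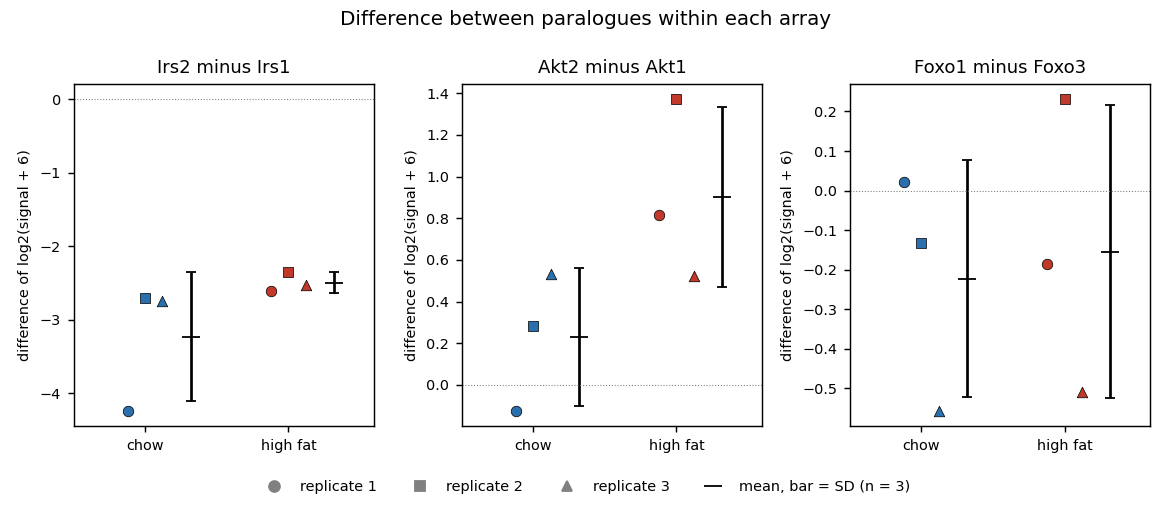
Difference of log2(signal + 6) between paralogues within each array (y axis, log2 units, not starting at 0) for 3 pairs on chow (blue) and high fat diet (red), with mean ± SD, n = 3. For Irs2 minus Irs1 the size of the mean difference comes mostly from 1 chow array at -4.24, and for Foxo1 minus Foxo3 the diets overlap fully.

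Wider lists of the route, without the 10 genes above, held 98 genes, of which 85 had a probe set of their own and 74 passed the filter, each taken by its probe set of highest mean. None passed an adjusted p of 0.05 in limma, where 0.0601% of 8326 genes taken the same way did. At an unadjusted p of 0.05 there were 9, or 12.2%, against 6.98% of all genes. Of these, 7 were higher on high fat diet, where the background was 4.28%, and 2 were lower, where it was 2.7%. The median log2 fold change of the 74 was 0.04, beside 0.01 for all genes. The 9 became 5 without high fat replicate 2, where 4.53% of all probe sets had such a p. They became 0 with the adipocyte marker mean as a covariate, where 2.52% of all probe sets did.

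At the level of the receptor, which held adaptors, phosphatases and SOCS proteins, 16 genes were tested and 0 had an unadjusted p under 0.05 in limma. Igf1r, the related receptor for insulin-like growth factors, had 99.0 ± 23.0 on high fat diet and 127.7 ± 16.9 on chow, and Ptpn1, the phosphatase that switches the insulin receptor off, had 410.8 ± 58.1 and 381.0 ± 36.5 (SD, n = 3 each), both chosen after their values were seen. Of 12 PI3 kinase and AKT genes, 2 had such a p, both higher. Inppl1, which encodes the lipid phosphatase SHIP2 that degrades the product of PI3 kinase, read 235.5, 245.8 and 212.2 on high fat diet and 173.1, 175.9 and 175.1 on chow. The chow arrays were nearly equal and all lay below the high fat arrays (log2 fold change 0.39, adjusted p = 0.632, limma). Trib3, a pseudokinase that binds AKT, had 89.4 ± 39.1 against 47.5 ± 8.6 (SD, n = 3 each), without overlap and highest in high fat replicate 2 at 134.5 (log2 fold change 0.77, adjusted p = 0.594, limma). Its probe set ends in _x_at, which marks probes that can bind other transcripts, and a second Trib3 probe set lay below the filter.

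Among 11 genes of the mTOR complexes and of translation control, 2 had an unadjusted p under 0.05, both higher on high fat diet. Deptor, which encodes an inhibitory subunit of both mTOR complexes, read 630.6, 491.9 and 478.3 on high fat diet and 325.0, 242.2 and 339.8 on chow. All high fat arrays exceeded all chow arrays, with means of 533.6 ± 84.3 and 302.3 ± 52.6 (SD, n = 3 each) and a log2 difference of 0.81 ± 0.18 (SE, adjusted p = 0.299, limma). On its other probe sets Deptor differed by 0.70 and 0.79 in log2 units, so that 3 of 3 had higher means on high fat diet by a similar amount. In 1 of the 3 the diets overlapped, and none passed the adjustment. Mtor, the kinase of these complexes, read 322.2, 341.9 and 403.0 against 263.1, 259.4 and 276.3, without overlap (0.40, adjusted p = 0.594, limma). Its second probe set had 0.15 and overlapped.

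Of 17 genes of glucose transport and glycogen, 1 had such a p. This was Hk2, the hexokinase of muscle and fat that insulin is known to induce, at 529.1, 483.1 and 564.7 on high fat diet and 370.7, 324.7 and 417.9 on chow, without overlap (log2 fold change 0.50, adjusted p = 0.506, limma). Slc2a4, the glucose transporter GLUT4 that TBC1D4 holds back, was added after its values were seen. It had 337.6 ± 6.9 on high fat diet and 337.3 ± 70.7 on chow (SD, n = 3 each), a log2 difference of 0.02 ± 0.17 (SE).

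The list of FOXO factors and their target genes held values of both signs. Of 18 tested, 2 were higher and 2 were lower at an unadjusted p under 0.05, and the median was 0.06. Cited2, a transcriptional coregulator, read 437.5, 304.3 and 293.2 on high fat diet and 512.0, 579.6 and 586.2 on chow. The diets did not overlap (log2 fold change -0.71, adjusted p = 0.402, limma), while a second Cited2 probe set had 0.03. Klf15, a transcription factor of amino acid and glucose metabolism, read 313.8, 209.8 and 287.2 against 362.1, 350.2 and 440.9, also without overlap (-0.51, adjusted p = 0.586, limma). Sod2, the mitochondrial superoxide dismutase, had 0.58 (adjusted p = 0.476, limma), and its other probe sets had 0.24 and 0.33. Pdk4, the kinase that shuts off pyruvate oxidation in fasting, had 1304 ± 310 on high fat diet and 848 ± 212 on chow (SD, n = 3 each), a log2 difference of 0.62 (adjusted p = 0.586, limma). The diets overlapped for Pdk4 and for the other Sod2 probe sets, and were apart for the leading one of Sod2. Brown adipocyte marker sums were higher on all high fat arrays than on any chow array, as given above, and their part in these values was not tested gene by gene.

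**Figure D4:**
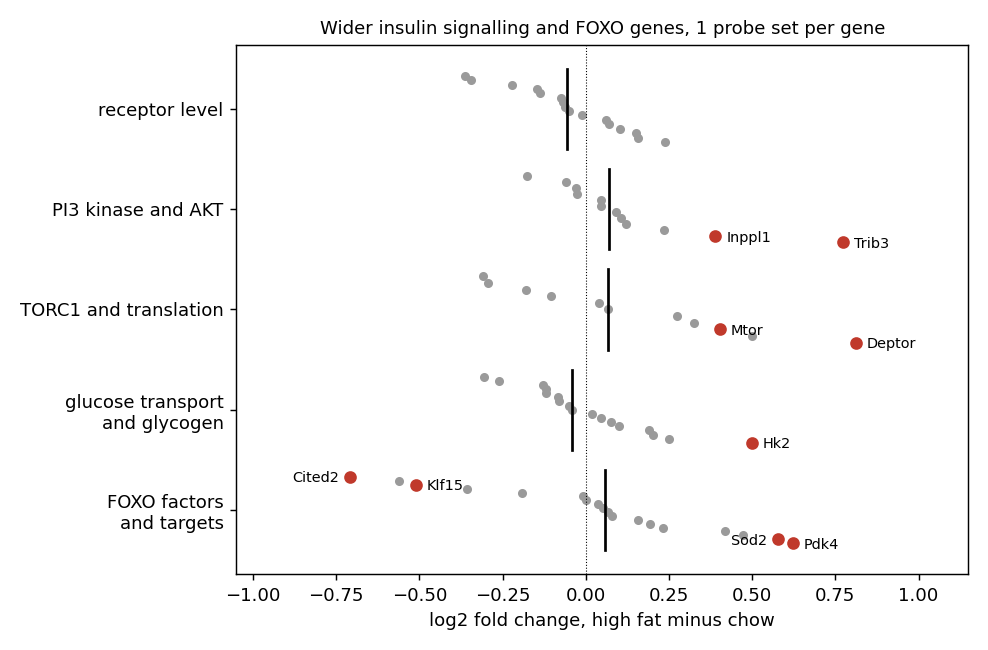
Log2 fold change between the diets (x axis, high fat minus chow) of 74 wider pathway genes in 5 lists, 1 point per gene, sorted within a list; red points with names have an unadjusted p under 0.05 and vertical bars are list medians. The medians lie between -0.06 and 0.07, with 7 named genes to the right of 0 and Cited2 and Klf15 to the left.

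The genes whose log2 values over the 6 arrays were most like those of the leading Akt1 probe set, among 8212 named genes, were Eif4a2, a translation initiation helicase, Zfp703, a transcriptional regulator, and Rsl1d1, a nucleolar protein. Their Pearson correlations with it were 0.99, 0.99 and 0.98, over 6 arrays that share the diets, as a description. Eif4a2 read 1278, 1215 and 1353 on high fat diet and 1654, 1449 and 1427 on chow. Like Akt1, it was highest in chow replicate 1 and lowest in high fat replicate 2. The 3 were picked as the most alike of 8212 genes over the same 6 arrays, so no link to Akt1 can be read from this. None of the 3 passed the adjustment.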

How the data were processed

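The authors deposited 1 linear signal intensity for each probe set on each array, from MAS5 per the submitters' processing notes, which name no version or setting. The 2% trimmed mean was 150.05 on each array, so the deposited scaling was kept. After removal of 64 control probe sets from 22690, gene symbols came from the annotation of the platform. Signals were taken as log2(signal + 6). A probe set was tested where the mean of these log2 values exceeded their 40th percentile, which stands for a signal of 40.7. The test of the diets was limma 3.58.1 (lmFit and eBayes, trend in the variance, two-sided, R 4.3.3), with p-values adjusted by Benjamini-Hochberg over all probe sets tested at a threshold of 0.05. Fold changes on this scale understate the change of low signals. The steps were tested on simulated data. No detection calls were used. All 10 genes were named, with up to 4 genes per wider list of smallest unadjusted p under 0.05. The genes and lists were chosen with earlier results of these data known. The replicate numbers were not taken as pairs. Alternatives were pseudocounts of 1 and 20, other filters, scalings and variance models, array weights, single arrays left out, a block for the replicate number, 1 probe set per gene and marker means as covariates. Python 3.11.15, pandas 2.3.3 and matplotlib 3.10.9 made figures and tables.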

Additional observations from a re-analysis of the deposited data

How the results depend on the processing

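In each of 19 other settings 0 of the insulin signalling probe sets tested passed the adjusted threshold in limma, with the smallest adjusted p at 0.542 or above and 0 to 2 unadjusted p under 0.05. The unadjusted count of 2 was 1 with quantile normalization, without the variance trend, with array weights, with the replicate block and with 1 probe set per gene, 0 with the adipocyte marker covariate, and 0 to 2 without single arrays, with other probe sets among those counted in some fits. Over the 19 settings, 2.52% (with the adipocyte covariate) to 8.56% (without high fat replicate 3) of all probe sets tested had an unadjusted p under 0.05. The adipocyte marker mean moved with diet, so that the fit with it as a covariate compares the diets with wider errors. The count of wider pathway genes of 9 was 0 with the adipocyte covariate (2.52% of all probe sets tested). Without single arrays it ran from 5, without high fat replicate 2 (4.53% of all), to 13, without high fat replicate 1 (8.32%). The count of all probe sets past the adjusted threshold, 10, was 5 with the replicate block and without the variance trend, 6 without a filter, with the cardiac covariate and with 1 probe set per gene, 0 with the adipocyte covariate, and 5 to 16 without single arrays. The replicate block changed no adjusted call of an insulin signalling probe set, and left the unadjusted p of Foxo3 1434832_at at 0.0520. Deviations of same-numbered arrays from the diet means correlated at 0.034, 0.17 and -0.11 over all probe sets tested, on which the numbers were not taken as pairs, and at 0.50, 0.12 and 0.36 over the insulin signalling probe sets. On neither set did every array correlate best with the array of its own number.

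Some values changed sign, among them Irs2 (0.54) and the leading Akt2 probe set (0.28). With the adipocyte covariate Insr was -0.42, the leading Akt2 probe set -0.035, Pik3r1 1451737_at 0.39, Akt1 1425711_a_at 0.054, Foxo1 1416981_at 0.13 and Foxo1 1416982_at 0.23. With array weights Akt1 1425711_a_at was 0.091 and Foxo1 1416982_at 0.064, and with the cardiac covariate they were 0.093 and 0.039. With quantile normalization Foxo1 1416982_at was 0.0088 and Akt2 1421324_a_at -0.0017, the latter -0.030 with equal array medians. Without single arrays, Akt1 1425711_a_at ran from -0.29 to 0.14, Akt2 1421324_a_at from -0.14 to 0.21, Foxo1 1416982_at from -0.12 to 0.11, Gsk3b from -0.12 to 0.31, Irs2 from -0.079 to 0.82 over the 4 settings in which it passed the filter, Pik3r1 1451737_at from -0.25 to 0.029 and Foxo1 minus Foxo3 from -0.12 to 0.25. The causes were not tested. The 3 probe sets below the filter could not be told from background without detection calls.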
